A study of Mus musculus with 2 samples.

Results

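The genes described here encode 36 subunits of the receptors for glutamate, GABA and glycine, chosen by name: 21 for glutamate and 15 for GABA and glycine. Of these, 34 were read on the array by a probe set (a group of short probes that match one transcript) whose annotation names that gene alone, out of 18193 genes read in this way, and they had 76 probe sets between them. For *Grin1* and *Gabbr2* the annotation names none, and they are not analysed here. The cells were brain mononuclear cells, a fraction rich in microglia that was collected from digested whole brain on a density gradient. The CD47 KO array holds pooled RNA of 6 male mice with the CD47 null genotype at 12 to 16 wks, and the WT array holds pooled RNA of 7 male wild-type mice at 10 to 15 wks. Neither the labels nor the protocols name an agent given to these animals. The strain of the mice is not stated in the labels. With 1 array of pooled animals per genotype there is no replicate, so the spread between animals is unknown and no difference below carries a p-value.

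Glutamate is the main excitatory transmitter of the brain, and GABA and glycine are the main inhibitory ones. AMPA, NMDA and kainate receptors are cation channels opened by glutamate, GABA-A and glycine receptors are chloride channels, and the metabotropic glutamate receptors and GABA-B receptors signal through G proteins. Most of these subunits are known from neurons, although astrocytes and oligodendrocyte precursors also make several of them.

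Each probe set has a MAS5 signal, which is its brightness on a linear scale in arbitrary units, as deposited. Median signals were 146 in CD47 KO cells and 161 in WT cells. A probe set was above the threshold when it reached its own array's median on at least 1 array, and each gene is represented by the brightest of its probe sets, judged by the mean of both arrays. Probe sets differ in how strongly they bind, so a signal is compared with that of the same probe set on the other array, never with that of another gene. *Cd47* itself had a signal of 1688 in CD47 KO cells and 5816 in WT cells, a Log2 ratio (KO/WT) of -1.79, and its 5 probe sets had -1.86 to -1.45. Whether these lie in the deleted part of the gene was not checked. Between the 2 pools of mixed cells, a change in the number of a cell type and a change of RNA per cell cannot be told apart.

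Receptor subunit genes were more often higher than lower in CD47 KO cells, by small amounts. Of the 31 members above the threshold, 23 were higher and 8 lower, where 50.3% of all 11682 genes above it were higher. Their median Log2 ratio was 0.21, beside 0.00 over all these genes. Past 2-fold, 3 members were higher (*Grm7*, *Grm3* and *Grin3a*), where 3.53% of all genes were, and none was lower, where 5.41% of all genes were. All 3 reached the median on both arrays, as did 29 of the 31 members, and with that demanded of every gene 1.28% were past 2-fold higher. *Grm2*, *Glra2* and *Gabra2* lay just short of 2-fold, with Log2 ratios of 0.99, 0.97 and 0.97. They passed it when the arrays were centred on their medians or normalized by quantiles or loess, which made the count 6. The share of all genes past 2-fold was not computed under those normalizations. *Grm2* and *Glra2* reached the median on the CD47 KO array alone.

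**Figure D1:**
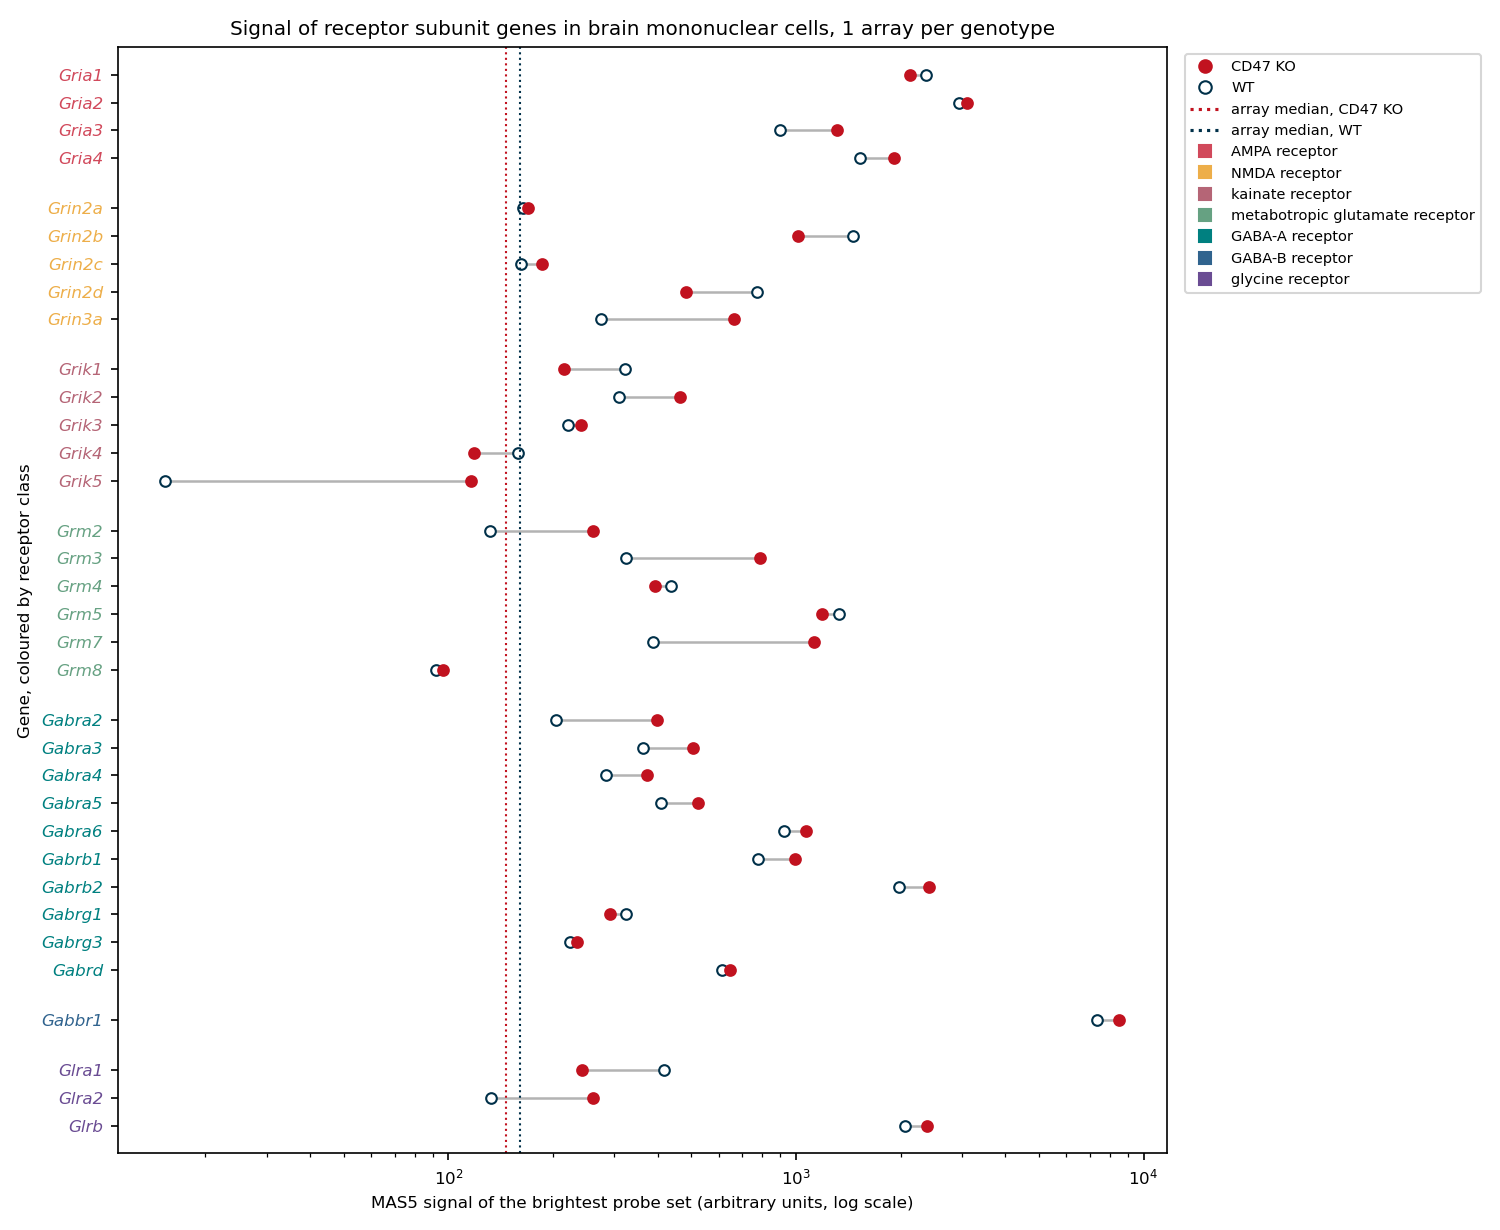
MAS5 signal (log scale, arbitrary units) of the brightest probe set of each of the 34 genes on the CD47 KO array (filled) and the WT array (open), with each array's median as a dotted line. The widest gaps above the medians are those of *Grm7* (1128 and 387), *Grm3* (789 and 323) and *Grin3a* (664 and 274). For *Gabbr1*, and likewise for *Gria2*, the CD47 KO and WT signals lie close together.

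The scatter of Log2 ratios depended on brightness. Its SD over all genes was 0.97 in the dimmest 25% by mean signal, 0.59 and 0.45 in the groups between and 0.28 in the brightest 25%, and these groups held 7, 10, 8 and 6 of the members. How far the probe sets of a gene disagree is the other gauge of error. For the 18 members with at least 2 probe sets above the threshold, its pooled SD was 0.77, which exceeds the median absolute Log2 ratio of 0.36 over the members (0.29 over all genes). In 6 of the 18 all such probe sets were higher in CD47 KO cells (*Gria4*, *Gabra2*, *Gabra3*, *Gabra4*, *Gabra6* and *Glrb*), in 2 all were lower (*Grin2b* and *Grm5*), and in 10 they went both ways. Most single differences below are therefore no larger than the disagreement between probe sets.

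**Figure D2:**
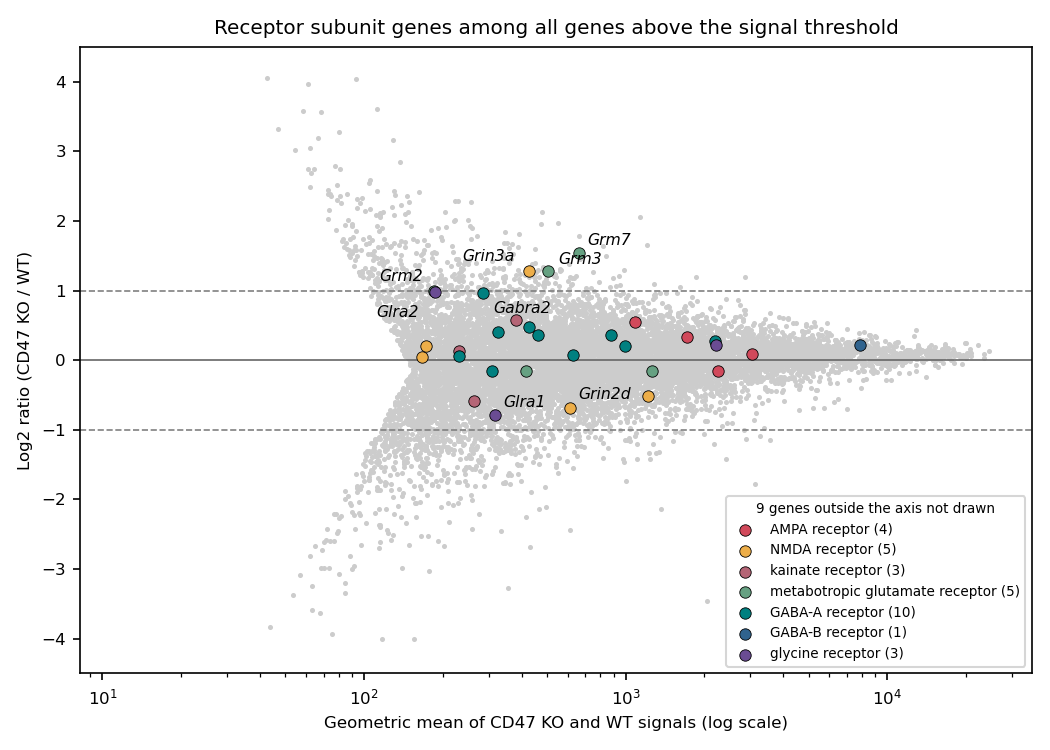
Log2 ratio (KO/WT) of each gene above the signal threshold against the geometric mean of its signals on both arrays (log scale), with receptor genes coloured by class and dashed lines at 2-fold. *Grm7* at 1.54, *Grm3* at 1.29 and *Grin3a* at 1.28 lie above the upper line, and the scatter of all genes (grey) widens towards low signals, with 9 genes beyond the axis not drawn.

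AMPA receptors carry most of the fast excitatory current at synapses. Of their 4 subunit genes, 3 were higher and 1 lower, with a median Log2 ratio of 0.20. *Gria2* encodes the subunit that keeps the channel nearly closed to calcium once its mRNA is edited. Signals were 3115 in CD47 KO cells and 2944 in WT cells on the brightest probe set, and the 3 probe sets had Log2 ratios of 0.08, 0.20 and -0.27. The promoter of *Gria2* is shown because it was the only one of those found for the members to hold the core of an RE1 element, the site of the repressor REST, which keeps neuronal genes silent in other cells. The sequence is from RefSeq (GRCm38.p6, chr3:80802786-80803085, minus strand), spans 250 bases before and 50 from the start of the gene, and has the match in capitals, on the reverse strand and beginning 170 bases before the start.
Gria2: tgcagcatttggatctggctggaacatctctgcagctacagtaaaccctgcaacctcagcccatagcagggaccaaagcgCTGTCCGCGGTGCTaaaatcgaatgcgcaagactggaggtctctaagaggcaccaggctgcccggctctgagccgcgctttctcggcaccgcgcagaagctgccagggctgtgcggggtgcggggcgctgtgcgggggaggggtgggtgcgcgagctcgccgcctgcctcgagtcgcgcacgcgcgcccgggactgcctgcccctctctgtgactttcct
The core of the RE1 consensus was searched on both strands, and 17 of 32851 mouse promoters (0.0517%) held it. A match of letters is not a measured binding site.

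The other AMPA receptor genes differed between probe sets. *Gria3*, which encodes a subunit that pairs with the *Gria2* product, had signals of 1316 in CD47 KO cells and 900 in WT cells, which is a Log2 ratio of 0.55 for the brightest of its probe sets. The other gave 572 in CD47 KO cells and 898 in WT cells, a Log2 ratio of -0.65. *Gria1*, the subunit gene most tied to activity-dependent insertion at synapses, ran the opposite way. Its brightest probe set was lower (2129 in CD47 KO cells and 2374 in WT cells, Log2 ratio -0.16) and the other was higher (2499 in CD47 KO cells and 1535 in WT cells, Log2 ratio 0.70). *Gria4*, known from Bergmann glia and interneurons as well, had 1921 in CD47 KO cells and 1531 in WT cells, with Log2 ratios of 0.33 and 0.03 on its probe sets above the threshold. The probe sets of *Gria1*, *Gria2* and *Gria3* thus went both ways, and those of *Gria4* did not.

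NMDA receptors need glutamate together with depolarization to open and admit calcium. Their 5 measured subunit genes were divided, with 3 higher, 2 lower and a median Log2 ratio of 0.04. *Grin3a*, which encodes a subunit that lowers the calcium entry of the channel, was 2.42-fold higher, with 664 in CD47 KO cells and 274 in WT cells. Its other 2 probe sets lay below the threshold, at 135 and 105 in CD47 KO cells and 109 and 97.4 in WT cells, with Log2 ratios of 0.31 and 0.11, so the difference rests on 1 probe set. *Grin2b*, the GluN2 gene that predominates early in life, was lower on both probe sets above the threshold. The brighter had 1015 in CD47 KO cells and 1456 in WT cells (Log2 ratio -0.52), and the dimmer had 339 in CD47 KO cells and 565 in WT cells (-0.74). The probe sets of *Grin2b* below the threshold ran the opposite way, with Log2 ratios of 0.39 and 1.07. *Grin2d*, a GluN2 gene of the brainstem and of interneurons, had 482 in CD47 KO cells and 773 in WT cells, a Log2 ratio of -0.68. Those values made *Grin2d* 1 of the 2 members more than 1.5-fold lower, while 6 were more than 1.5-fold higher. The share of all genes past 1.5-fold was not computed. The other probe set of *Grin2d*, below the threshold, had 16.1 in CD47 KO cells and 52.9 in WT cells. *Grin2a*, the GluN2 gene of the mature forebrain, and *Grin2c*, that of cerebellar granule cells and astrocytes, lay near the array medians. *Grin2a* had 169 in CD47 KO cells and 164 in WT cells, and *Grin2c* had 186 in CD47 KO cells and 162 in WT cells.

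Kainate receptors act on both sides of the synapse. Of their 5 subunit genes, 3 were above the threshold, and 2 of these were higher and 1 lower, with a median Log2 ratio of 0.13. *Grik2*, which encodes a subunit that forms channels by itself, had 464 in CD47 KO cells and 310 in WT cells (Log2 ratio 0.58) on its brightest probe set, while the other had -0.16. *Grik1*, a gene of interneurons, had 215 in CD47 KO cells and 322 in WT cells, a Log2 ratio of -0.58, while its other probe set, below the threshold, had 0.29. *Grik3*, a presynaptic subunit gene, had 241 in CD47 KO cells and 221 in WT cells. The 2 genes whose products need partners to form a channel, *Grik4* and *Grik5*, were below the median of both arrays. *Grik4* had 118 in CD47 KO cells and 159 in WT cells. *Grik5* had 116 in CD47 KO cells and 15.3 in WT cells, and since both signals are below the threshold no fold change is drawn from them.

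The metabotropic glutamate receptors held 2 of the 3 members past 2-fold. Of 6 genes, 5 were above the threshold, 3 of them higher and 2 lower, and the median Log2 ratio was 0.99, which is the value of *Grm2*. The direction of the class depended on the probe sets. Of its 8 probe sets above the threshold 3 were higher and 5 lower, and the median over the same 5 genes was -0.14 with the mean over probe sets of each gene, and -0.74 on the second brightest probe set, which 2 genes have. *Grm7* encodes a receptor of the active zone that damps transmitter release. Its brightest probe set was 2.91-fold higher, with 1128 in CD47 KO cells and 387 in WT cells. The other probe sets pointed the opposite way, at 89.7 and 52.2 in CD47 KO cells and 229 and 163 in WT cells, with Log2 ratios of -1.35 and -1.65. Both of these reached the median on the WT array alone. *Grm7* was thus past 2-fold in both directions by different probe sets, as were 0.325% of all genes with a probe set above the threshold, and the mean over its probe sets was -0.49. The exons or transcript ends that these probe sets match were not looked up.

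*Grm3* and *Grm2* encode the receptors of group II, which inhibit adenylyl cyclase, *Grm3* in astrocytes as well as neurons. *Grm3* was 2.44-fold higher, with 789 in CD47 KO cells and 323 in WT cells. *Grm2* had 261 in CD47 KO cells, above the array median, and 131 in WT cells, below it, a Log2 ratio of 0.99. Both rest on a single probe set. The remaining genes of the class had Log2 ratios near 0. *Grm5*, of group I, which raises intracellular calcium, had 1191 in CD47 KO cells and 1326 in WT cells on its brightest probe set, and both its probe sets were slightly lower (Log2 ratios -0.15 and -0.12). *Grm4*, a group III gene of cerebellar granule cells, had 394 in CD47 KO cells and 437 in WT cells. *Grm8*, of the same group, was below the threshold at 96.5 in CD47 KO cells and 92.4 in WT cells.

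The promoters of *Grm7* and *Grm3*, the members with the largest Log2 ratios, are shown for comparison (RefSeq, GRCm38.p6; *Grm7* at chr6:110645262-110645561 on the plus strand, the first of 2 starts listed, and *Grm3* at chr5:9725303-9725602 on the minus strand). Capitals mark the GC box GGGCGG, the site of Sp1-type factors, which was searched on both strands and found as spelled, once in *Grm7* and as 2 adjoining copies in *Grm3*.
Grm7: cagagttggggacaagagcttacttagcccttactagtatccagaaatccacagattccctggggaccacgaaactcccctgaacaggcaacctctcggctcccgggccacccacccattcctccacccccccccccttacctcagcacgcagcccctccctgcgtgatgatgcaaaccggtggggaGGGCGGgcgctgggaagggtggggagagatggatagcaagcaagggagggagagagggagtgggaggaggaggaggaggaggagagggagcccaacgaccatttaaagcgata
Grm3: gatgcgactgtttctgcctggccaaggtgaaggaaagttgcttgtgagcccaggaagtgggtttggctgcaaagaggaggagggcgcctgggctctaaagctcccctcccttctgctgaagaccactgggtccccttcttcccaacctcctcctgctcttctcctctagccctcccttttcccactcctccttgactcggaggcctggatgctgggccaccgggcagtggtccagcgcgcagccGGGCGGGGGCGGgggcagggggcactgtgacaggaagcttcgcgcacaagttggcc
A GC box lay in 18 of the 33 promoters found for 26 of the members, and in 35.7% of all mouse promoters in the table. The letters TATAAA lay in 4 of the 33, and in 13.6% of all. Neither *Grm7* nor *Grm3* held TATAAA in the windows shown, and the windows hold 61.0% and 63.7% G and C.

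Among the classes with several genes, GABA-A receptor genes had the most even direction. These pentamers of alpha, beta and a further subunit carry fast inhibition. Of the 10 genes, all above the threshold, 9 were higher and 1 lower, with a median Log2 ratio of 0.32. No gene of the class passed 2-fold on its brightest probe set. The count of 9 in 10 was the same after centring, quantile and loess normalization, and with the median demanded on both arrays. Of the 23 probe sets of these genes above the threshold 20 were higher, and the share over all probe sets was not computed. Some of the 20, in *Gabra2*, *Gabra4* and *Gabrg1*, reached the median on the CD47 KO array alone, which favours a higher ratio.

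*Gabra2*, a subunit gene of the forebrain, had the highest Log2 ratio of the class on the brightest probe sets. Its brightest probe set had 399 in CD47 KO cells and 204 in WT cells, and the next had 387 in CD47 KO cells and 142 in WT cells. The third, with 170 in CD47 KO cells and 135 in WT cells, was higher as well, so that the Log2 ratios were 0.97, 1.45 and 0.33. The other alpha subunit genes were higher on each of their probe sets above the threshold. *Gabra3*, on the X chromosome and typical of brainstem and thalamic reticular neurons, had 506 in CD47 KO cells and 363 in WT cells, with Log2 ratios of 0.48 and 0.88. *Gabra4*, a partner of the delta subunit in the forebrain, had 374 in CD47 KO cells and 283 in WT cells (0.40 and 0.67). *Gabra5*, the extrasynaptic subunit gene of the hippocampus, had 523 in CD47 KO cells and 408 in WT cells (0.36). *Gabra6*, which is typical of cerebellar granule cells, differed less, with 1067 in CD47 KO cells and 926 in WT cells (0.21 and 0.09).

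Among the beta subunit genes, *Gabrb2* had 2409 in CD47 KO cells and 1984 in WT cells, and its 5 probe sets had Log2 ratios from -0.08 to 0.40. *Gabrb1*, also made by astrocytes, had 997 in CD47 KO cells and 779 in WT cells, and its 4 probe sets ranged from -0.12 to 0.36. In both genes all but 1 probe set were higher. *Gabrd*, the delta subunit gene of tonic inhibition, had 647 in CD47 KO cells and 613 in WT cells, and *Gabrg3*, a gamma subunit gene, had 235 in CD47 KO cells and 225 in WT cells. Neither differed by more than the scatter of genes of like signal. *Gabrg1*, the gamma subunit gene of astrocytes and the amygdala, was the 1 gene of the class that was lower. Its brightest probe set had 292 in CD47 KO cells and 325 in WT cells (Log2 ratio -0.16), but the other, which the annotation ties to the same sequence record, had 248 in CD47 KO cells and 28.3 in WT cells. That WT signal is below the 25th percentile of its array, and the Log2 ratio of 3.13 became 2.66 with low signals raised to 39.2.

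**Figure D3:**
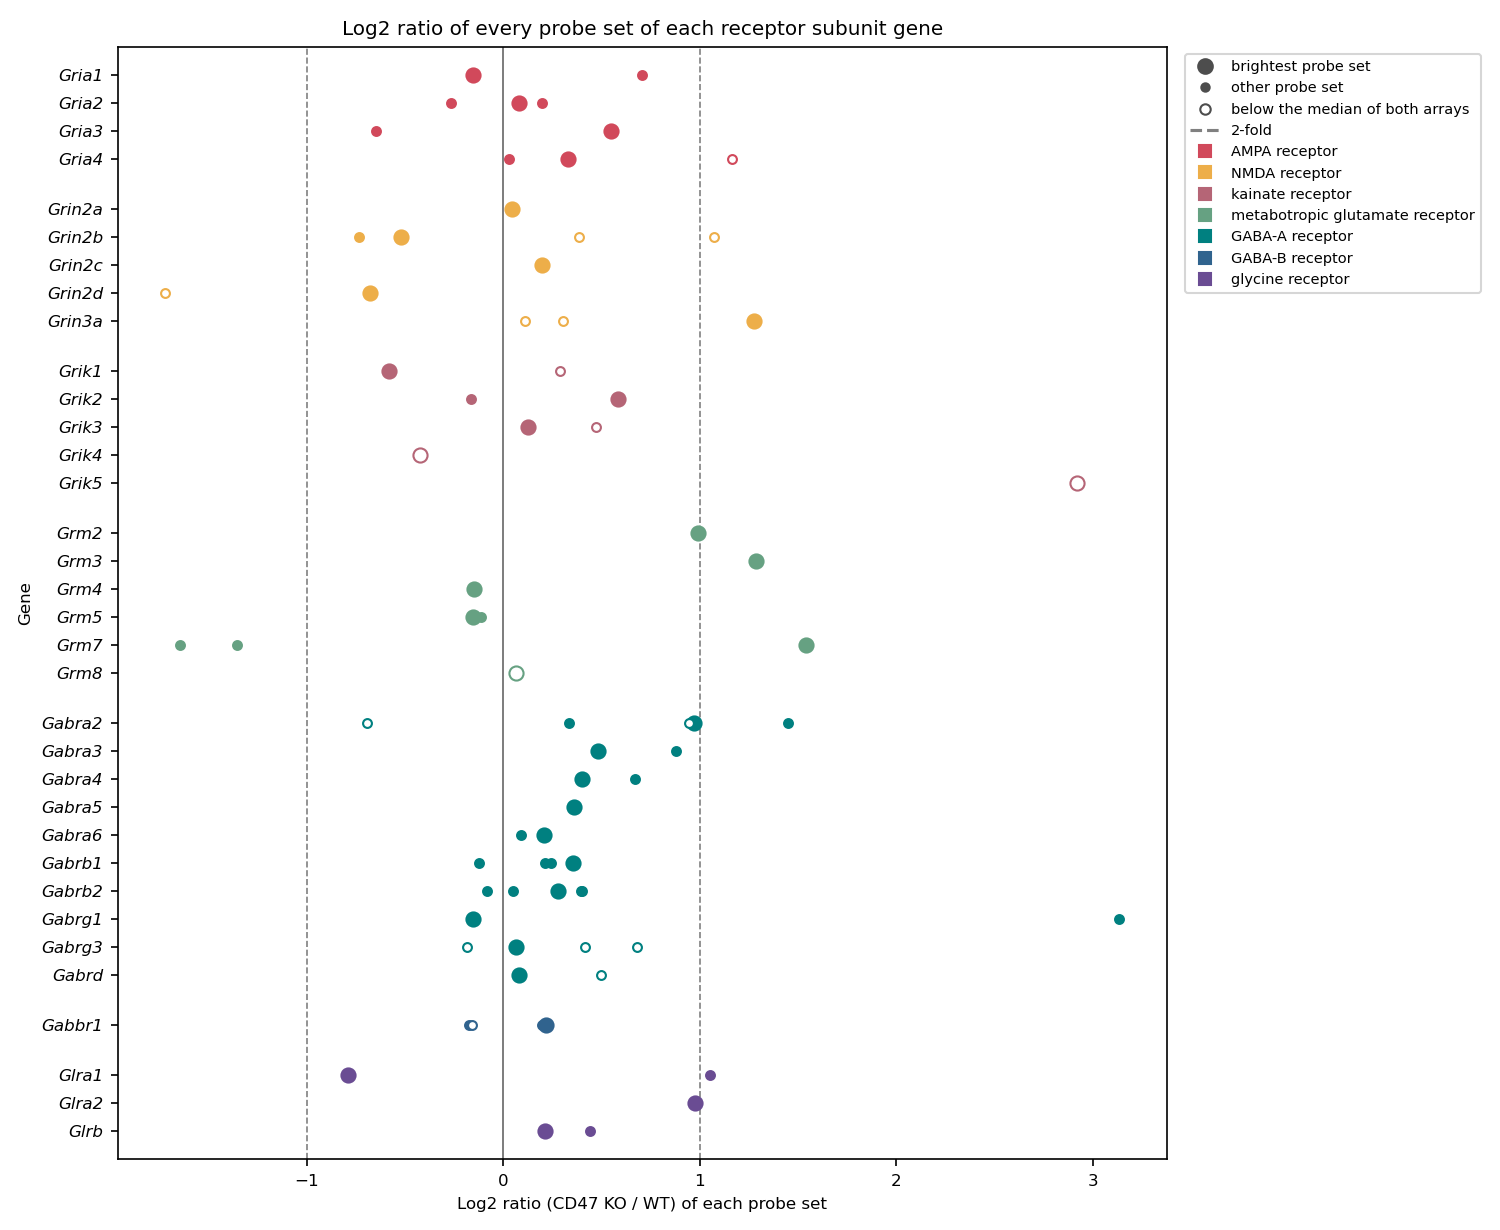
Log2 ratio (KO/WT) of each of the 76 probe sets of the 34 genes, by gene and receptor class, with the brightest probe set of a gene as the larger point, probe sets below both array medians open and 2-fold dashed. GABA-A genes lie mostly right of 0 (20 of 23 filled points), whereas *Grm7*, *Glra1*, *Gria3* and *Gabrg1* have filled points far apart on both sides of it. Some filled points of *Gabra2*, *Gabra4* and *Gabrg1* right of 0 reached the median on the CD47 KO array alone.

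Several GABA-A genes sit side by side in the mouse genome. In the RefSeq gene table *Gabrg1* adjoins *Gabra2*, and *Gabra4* overlaps *Gabrb1*, both pairs on chromosome 5, where the brightest probe sets had Log2 ratios of -0.16, 0.97, 0.40 and 0.36. *Gabra6* and *Gabrb2* are neighbours on chromosome 11 (0.21 and 0.28), and *Gabrg3* and *Gabra5* on chromosome 7 (0.07 and 0.36). On these probe sets *Gabra2* had a higher Log2 ratio than its neighbour, but the other probe set of *Gabrg1*, at 3.13, was above all those of *Gabra2*. The pairs on chromosomes 11 and 7 lay within the scatter of genes of like signal, as did *Gabra4* and *Gabrb1*. Where genes overlap, as *Gabra4* and *Gabrb1* do, strand matters to the assignment of probes, and the orientation of the probes was not checked here.

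The GABA-B receptor is a pair of subunits, of which *Gabbr1* binds GABA. *Gabbr1* had 8509 in CD47 KO cells and 7324 in WT cells, a Log2 ratio of 0.22. Its other probe sets above the threshold had 0.19 and -0.18, so the pools differed by no more than the probe sets did.

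Glycine receptors carry inhibition in the brainstem and spinal cord. *Glrb*, the beta subunit gene, whose product ties the receptor to gephyrin, had 2387 in CD47 KO cells and 2058 in WT cells (Log2 ratio 0.21) on a probe set whose name marks possible cross-hybridisation. The other had 1084 in CD47 KO cells and 798 in WT cells (0.44). *Glra2*, the alpha subunit gene of the developing brain, had 261 in CD47 KO cells and 133 in WT cells, below the WT median, a Log2 ratio of 0.97 on its only probe set. *Glra1*, the adult alpha subunit gene, was split between probe sets. The brightest was 1.73-fold higher in WT cells, with 242 in CD47 KO cells and 418 in WT cells, and the other had 254 in CD47 KO cells and 122 in WT cells, a Log2 ratio of 1.05. Counting any probe set above the threshold, 5 members were past 2-fold higher alone (*Grin3a*, *Grm3*, *Gabra2*, *Gabrg1* and *Glra1*), where 6.52% of all genes were, and none was past 2-fold lower alone, where 9.00% were. In *Gabra2*, *Gabrg1* and *Glra1* the probe set past 2-fold reached the median on the CD47 KO array alone.

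Genes that work with these receptors were described from lists. Of 28 auxiliary and scaffold genes of glutamate receptors above the threshold (of 33 listed), 18 were higher and 10 lower, with a median Log2 ratio of 0.11. *Shisa9*, which encodes an AMPA receptor auxiliary protein, had 885 in CD47 KO cells and 362 in WT cells and was the only one past 2-fold (1.29), while its other probe sets gave -0.02 and -0.17. *Gsg1l*, another AMPA receptor auxiliary gene, had 349 in CD47 KO cells and 183 in WT cells (0.94). *Cacng4*, of the same function, had 141 in CD47 KO cells, below the array median, and 222 in WT cells (-0.66). *Dlg4*, the gene of the postsynaptic scaffold PSD-95, was slightly lower at 940 in CD47 KO cells and 1239 in WT cells.

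The partners of GABA and glycine receptors ran against the receptor genes. Of 15 above the threshold (of 19 listed), 3 were higher and 12 lower, with a median of -0.26. *Gphn*, which encodes the scaffold gephyrin, had 456 in CD47 KO cells and 585 in WT cells (Log2 ratio -0.36). *Nlgn2*, the adhesion protein gene of inhibitory synapses, had 470 in CD47 KO cells and 610 in WT cells (-0.38). *Shisa7*, which encodes a GABA-A auxiliary protein, was the only one past 2-fold, with 110 in CD47 KO cells and 252 in WT cells (-1.20). Its CD47 KO signal was below the array median, and it rests on a single probe set. *Hap1* (-0.88) and *Iqsec3* (-0.72), genes of receptor recycling and of a gephyrin partner, followed. The list also holds *Gabarapl1*, known from autophagy, at -0.46, and *Trak1*, an adaptor of mitochondrial transport, at -0.26. On the second brightest probe set, which 7 of these genes have, 3 were higher and 4 lower, with a median of -0.03.

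Genes of transmitter supply were mostly higher. For glutamate, 8 of 10 were higher (of 13 listed), or 7 after quantile or loess normalization, with a median Log2 ratio of 0.24. *Slc1a2*, the main astrocytic glutamate transporter gene, had 10762 in CD47 KO cells and 8851 in WT cells, and *Slc17a6*, a vesicular transporter gene, had 1007 in CD47 KO cells and 702 in WT cells (0.52). *Slc1a6*, the transporter gene of Purkinje cells, was past 2-fold at 311 in CD47 KO cells and 107 in WT cells (1.54), while the WT signal was below the array median. *Got2*, a mitochondrial aminotransferase gene that links glutamate to the citric acid cycle, had 2100 in CD47 KO cells and 2719 in WT cells (-0.37). For GABA and glycine, 7 of 10 were higher (of 14 listed), with a median of 0.20. *Slc32a1*, which encodes the vesicular transporter of both, had 2451 in CD47 KO cells and 1301 in WT cells, and its 4 probe sets had Log2 ratios from 0.40 to 0.91. *Aldh5a1*, which encodes an enzyme of GABA breakdown, had 843 in CD47 KO cells and 484 in WT cells (0.80). *Gad1*, a GABA-synthesizing enzyme gene, had 3785 in CD47 KO cells and 4582 in WT cells (-0.28). *Slc6a13*, a GABA transporter gene of the meninges, was past 2-fold lower, with 212 in CD47 KO cells and 476 in WT cells (-1.17). Of 16 further receptor subunit genes, 9 were named on the array and 2 were above the threshold, *Grid1* with 263 in CD47 KO cells and 226 in WT cells and *Glra3* with 211 in CD47 KO cells and 43.9 in WT cells. That WT signal of *Glra3* is below the array median, and its other probe set, below the threshold, ran the opposite way with 42.9 in CD47 KO cells and 99.2 in WT cells.

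**Figure D4:**
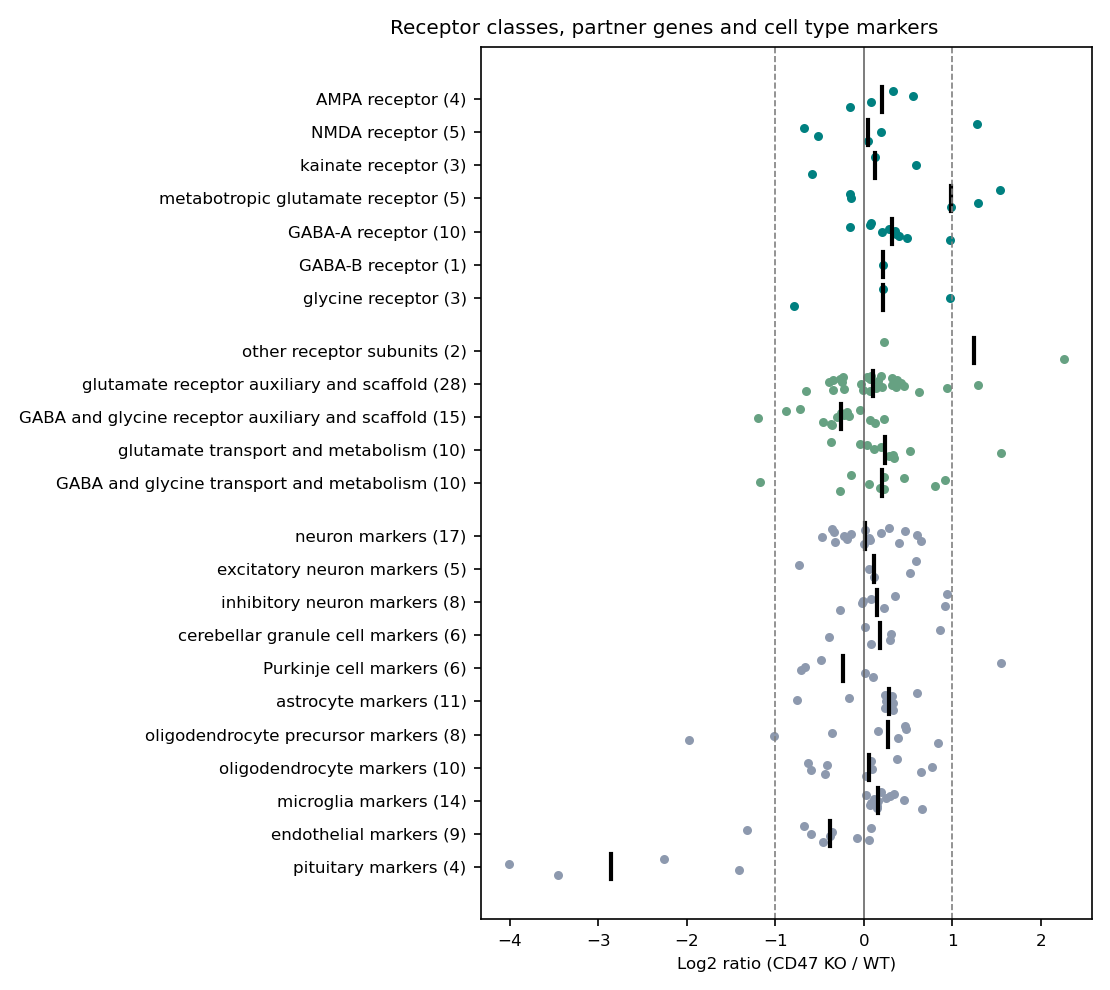
Log2 ratio (KO/WT) of every gene above the signal threshold in each receptor class, partner list and cell type marker list (each gene a point, and beside each name how many genes were drawn), with black bars at the medians and dashed lines at 2-fold. GABA-A genes have a median of 0.32 and their partners of -0.26, and neuron markers are spread evenly around 0 (0.01).

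Markers of the cells that could supply these transcripts were set beside the receptors. Markers of neurons were divided, 10 of 17 higher (9 after quantile or loess normalization) with a median Log2 ratio of 0.01, and their summed signal was 61382 in CD47 KO cells and 58007 in WT cells. Such sums over a list are weighted towards the brightest probe sets. *Snap25*, of synaptic vesicle fusion, had 17607 in CD47 KO cells and 17563 in WT cells. Excitatory neuron markers had a median of 0.11 (4 of 5 higher), inhibitory ones 0.15 (5 of 8, or 7 after any of the 3 normalizations), those of cerebellar granule cells 0.19 (5 of 6) and those of Purkinje cells -0.23 (3 of 6). Astrocyte markers were higher in 9 of 11 genes, with a median of 0.28, or 0.22 after loess normalization. Their summed signals were 37874 in CD47 KO cells and 30916 in WT cells. Oligodendrocyte precursor markers had 5 of 8 higher and a median of 0.27, or 4 of 8 and -0.08 with the mean over probe sets, although *Cspg4* (-1.97) and *Olig2* (-1.02) were past 2-fold lower. Both had CD47 KO signals below the array median, 78.0 for *Cspg4* and 86.7 for *Olig2*, and the other probe set of *Cspg4*, below the threshold, had 92.2 in CD47 KO cells and 96.8 in WT cells. Oligodendrocyte markers had 6 of 10 higher and a median of 0.05, which was -0.01 after loess normalization. Microglia markers were higher in 14 of 14 genes with a median of 0.16 and summed signals of 147591 in CD47 KO cells and 131249 in WT cells, and in 11 of 14 after quantile or loess normalization. Endothelial markers had 2 of 9 higher and a median of -0.38, and pituitary markers 0 of 4 and -2.86. Markers of all these cell types were thus read on both arrays, and their part in the receptor values was not tested.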

How the data were processed

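RNA from brain mononuclear cells was pooled by genotype, amplified from 20 ng and hybridised to 1 GeneChip Mouse Genome array per pool. The deposited values are MAS5 signal intensities on a linear scale, which the authors made with the Expression Console Software (version not given in the sources used here). After removing 2% of values at each end their mean was 500.002 on both arrays. No detection calls were used. Of 45101 probe sets, 64 are controls, 34945 carry 1 gene symbol in the platform annotation, 932 several and 9160 none here, and those with 1 symbol were used. The Log2 ratio (KO/WT) was taken without an offset from the brightest probe set of each gene, and a gene counted as changed past 2-fold. There is no test, since each genotype has 1 array, and the number of arrays limits the precision.

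The members and all lists were chosen with earlier results of these data known. All members are accounted for. Of partner lists, genes past 2-fold and up to 3 with the largest change were named; *Dlg4*, *Gphn*, *Nlgn2*, *Gabarapl1*, *Trak1*, *Slc1a2* and *Gad1* were added after their values were seen. Gene identifiers of all 34 measured members matched the RefSeq table of GRCm38.p6. Each value was recomputed under 11 alternatives, which changed the threshold, the normalization (medians centred, quantiles matched, or a loess curve of span 0.4), low signals or the probe set, and 1 further count over any probe set was added after seeing the data. The calculation was tested on simulated arrays. Python 3.11.15, pandas 2.3.3 and statsmodels 0.14.6 were used.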

Additional observations from a re-analysis of the deposited data

How the results depend on the processing

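The median Log2 ratio of the members stayed between 0.17 and 0.25 under the 11 alternatives. The number past 2-fold higher was 6 after centring, quantile or loess normalization and 4 with no threshold, where *Grik5* enters. For the counts of 6 and 4 the share of all genes was not computed. Over any probe set the number was 5, which leaves out *Grm7* because it passed 2-fold in both directions. That count was added after seeing the data. *Gabra2*, *Gabrg1* and *Glra1* enter it by probe sets that reached the median on the CD47 KO array alone. On the second brightest probe set of the 18 members that have 2 above the threshold, 1 member was past 2-fold lower, *Grm7* at -1.35, and its mean over probe sets was -0.49, both against the direction of its brightest probe set. In the same setting the class medians were 0.67 for GABA-A genes (7 genes), -0.74 for NMDA (1 gene) and -0.74 for metabotropic glutamate genes (2 genes). The metabotropic median was also -0.14 with the mean over probe sets, where the same 5 genes enter and *Grm7* turns negative, and 0.53 with no threshold, where *Grm8* enters as a sixth gene, and the NMDA median was -0.52 with the threshold at the 75th percentile, where 3 genes were left. Fewer genes enter on the second brightest probe set and at the 75th percentile, and the cause beyond that was not tested. Of 311 values of single members, 300 moved by less than the SD between probe sets of genes of like signal. A change of threshold leaves a member's ratio as it is, and centring shifts all ratios alike, so most of these values could not move far. The 9 that moved further and the 2 that reversed all came from the mean over probe sets or the second brightest probe set. *Grin3a* stayed between 1.17 and 1.33 and *Grm3* between 1.19 and 1.32. Each has only 1 probe set above the threshold, so the settings that turned *Grm7* could not alter their values. No paired analysis was possible because each genotype has 1 pooled array. Dim probe sets, at or below the array medians, limit *Grik4*, *Grik5* and *Grm8*. A signal below the median of 1 array also limits *Grm2* and *Glra2*. The same holds for dimmer probe sets above the threshold in *Glra1*, *Grm7*, *Gabra2*, *Gabra4* and *Gabrg1*.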
